A study of Mus musculus with 2 samples.

Results

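Cycling T cells were taken from single-cell RNA sequencing of pancreatic islets as barcodes that held T cell transcripts together with transcripts of dividing cells. A barcode counted as one if it had at least 500 UMIs (unique molecular identifiers, 1 for each captured transcript), at least 200 genes, at most 20% mitochondrial UMIs and under 10% of its UMIs from Ins1, Ins2, Gcg, Sst and Ppy. It also needed at least 2 UMIs of the CD3 genes Cd3d, Cd3e and Cd3g, no UMI of the B cell genes Cd79a and Ms4a1, at most 1 UMI of the macrophage genes C1qa, C1qb and C1qc, and at least 2 UMIs of Mki67, Top2a, Birc5 and Ube2c together. This gave 263 cells, of 3519 T cells chosen without the last clause, of 15142 barcodes that passed the cell filters and of 15958 deposited barcodes. The cells were thus chosen by their measured UMIs of these genes, and no value of the rule genes is a finding. They are compared with 3023 other T cells, which held none of the 4 cycling transcripts.

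The mice were NOD/ShiLtJ of the genotype the labels give as WT NOD, an inbred strain that develops autoimmune diabetes, and were 15 weeks old. They ate either 20% of a component that the labels abbreviate as HC and do not expand, or 16% HC together with 4% gluten. Each diet had 1 library (10x Genomics 3' chemistry) made from islet cells of 3 mice pooled, so there is no replicate error and no test between diets, and every interval in brackets is a 95% interval for counting error only. The gluten library held 100 cycling T cells and the library with HC alone 163. Values are given in that order, and log2 ratios between diets are gluten over HC alone.

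T cells that meet antigen leave a resting state and divide. In such cells the E2F factors switch on the genes that copy DNA in S phase, and later the MuvB complex, bound at CHR elements (TTTGAA or TTCGAA) and often assisted by NF-Y at CCAAT boxes, switches on the genes of mitosis. In autoimmune diabetes, T cells that recognise beta cell antigens infiltrate the islets, and both CD8 and CD4 T cells take part.

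The following promoters are shown because the genes behind them mark the 2 ends of the cell cycle programme seen in the cells. Cdc20 (activator of the anaphase-promoting complex), Ccnb2 (cyclin B2) and Hmmr (a spindle protein) were among the genes farthest above the other T cells, Mki67 is one of the genes that chose the cells, and Mcm5 (a subunit of the replicative helicase) is an S phase gene. They were chosen after their values and motifs were seen. Each sequence runs from 150 bases before to 30 bases after the RefSeq start on build GRCm38.p6, and capitals mark CHR, CCAAT and E2F matches on either strand. Cdc20 lies at chr4:118437314-118437493 on the minus strand, Ccnb2 at chr9:70421525-70421704 on the minus strand, Hmmr at chr11:40733408-40733587 on the minus strand, Mki67 at chr7:135716350-135716529 on the minus strand, and Mcm5 at chr8:75109359-75109538 on the plus strand.
Cdc20: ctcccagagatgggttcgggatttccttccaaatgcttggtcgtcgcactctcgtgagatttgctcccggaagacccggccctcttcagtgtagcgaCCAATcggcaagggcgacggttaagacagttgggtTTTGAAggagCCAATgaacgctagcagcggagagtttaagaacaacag
Ccnb2: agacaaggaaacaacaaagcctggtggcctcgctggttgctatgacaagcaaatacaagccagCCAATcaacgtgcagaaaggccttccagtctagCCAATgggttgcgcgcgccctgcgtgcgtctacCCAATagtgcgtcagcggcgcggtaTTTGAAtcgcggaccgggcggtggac
Hmmr: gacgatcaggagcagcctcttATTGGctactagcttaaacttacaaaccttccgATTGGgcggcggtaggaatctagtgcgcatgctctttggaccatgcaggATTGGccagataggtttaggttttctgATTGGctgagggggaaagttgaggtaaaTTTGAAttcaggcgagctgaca
Mki67: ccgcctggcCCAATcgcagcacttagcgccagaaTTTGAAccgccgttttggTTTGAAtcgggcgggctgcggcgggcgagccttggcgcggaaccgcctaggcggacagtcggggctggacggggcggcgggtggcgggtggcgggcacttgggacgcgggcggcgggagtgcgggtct
Mcm5: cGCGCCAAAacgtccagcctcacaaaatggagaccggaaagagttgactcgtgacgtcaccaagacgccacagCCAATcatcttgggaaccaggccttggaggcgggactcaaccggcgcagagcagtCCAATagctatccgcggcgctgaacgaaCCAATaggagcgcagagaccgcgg

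Across the RefSeq promoter table, with windows of 250 bases before to 50 after the start, 73 of the 85 genes on the mitosis lists had 81 promoters, and 53 of them (65.4%) held a CHR match, TTTGAA or TTCGAA on either strand. Of the 59 promoters of the S phase lists (licensing, replication and nucleotide supply), 7 (11.9%) did, and of all 32851 promoters 6316 (19.2%) did. A CCAAT match stood in 71.6%, 55.9% and 37.4% of these 3 sets. CHR and CCAAT together stood in 53.1% of the mitosis promoters, 8.47% of the S phase promoters and 7.52% of all. An E2F match (TTTCGCGC, TTTGGCGC or TTTCCCGC, either strand) stood in 19 of 59 S phase promoters (32.2%), in 8.64% of the mitosis promoters and in 1.84% of all. The CHR motif starts 18 bases before the start in Cdc20, and at bases 5 and 9 after it in Ccnb2 and Hmmr. A match to these letters is a description and not a bound site.

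The transcripts that chose the cells were spread over all 4 genes. Mki67 was seen in 70.0% and 74.2% of the cycling T cells, Top2a (topoisomerase II) in 72.0% and 82.8%, Birc5 (survivin) in 68.0% and 69.3%, and Ube2c (a ubiquitin-conjugating enzyme of mitotic exit) in 60.0% and 62.6%. Of the T cell markers that the rule did not use, Trbc2 (T cell receptor beta constant region) was found in 96.0% and 98.2% of the cells, Trac (alpha constant region) in 85.0% and 93.9%, Lck in 83.0% and 92.6% and Cd2 in 83.0% and 92.6%. The cells held a median of 9 and 14 cycling UMIs, with a range of 2 to 118 and 2 to 171. Their median total of 7998 and 11472 UMIs stood above the 2226 and 2726.5 UMIs of the other T cells, so a share of cells with a UMI can differ with depth alone. The cycling share and the T cell lineage genes are therefore given also at equal depth, as are Pdcd1 and the genes plotted with them, and the other shares only as deposited. Just inside the threshold, 25 and 38 cells with exactly 2 cycling UMIs held 11.5 and 13.0 UMIs of S phase genes per 10000. Just outside it, 90 and 143 cells with 1 cycling UMI held 8.78 and 9.79, and the cells with none held 7.02 and 5.97. Cells with 10 or more, 48 and 92 of them, held 37.6 and 38.2.

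RNA of other lineages was present in some of these barcodes. At least 5 UMIs of the macrophage markers were found in 8 of 100 and 15 of 163 cycling T cells, of the dendritic markers in 9 and 11, of the mesenchymal markers in 4 and 9, and of the endothelial markers in 0 and 4. At least 10 acinar UMIs were held by 9 and 0, and at least 5% hormone UMIs by 3 and 0. At least 1 of these applied to 21.0% [13.5, 30.3] and 13.5% [8.66, 19.7] of the cycling T cells, and to 15.6% and 4.19% of the other T cells. The 4 neutrophil markers S100a8, S100a9, Csf3r and Retnlg were at 0 in both libraries. The B cell genes Pax5 and Fcmr were at 0 in the gluten library. The 2 libraries shared 15 barcodes. The results between diets are therefore also given over the 79 and 141 cycling T cells without such RNA, a choice made after seeing the data, and the part that RNA of other lineages plays in the values over all cells was not tested. Below, cells without RNA of other lineages are those under these cutoffs. The cutoffs did not use plasma or NK markers, of which 18 and 48, and 24 and 25, cycling T cells held at least 5 UMIs. At least 5 endocrine UMIs were found in 100% of them. In the 79 and 141 cells, 7 of 8 endocrine genes still had intervals above 0 between diets, with a median of 0.68. The endocrine list includes hormone genes that the rule and the 5% cutoff use. No share of intervals over all genes is given for these cells, so this count is a description only.

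Cycling cells made up 7.96% [6.52, 9.59] of the T cells with gluten and 7.21% [6.17, 8.35] with HC alone, a difference of 0.749 points [−1.03, 2.66] that lies within counting error. With each cell thinned to 1500 UMIs and the T cell gate applied again, the shares were 3.95% [2.84, 5.34] and 3.31% [2.56, 4.20], which left out 155 and 128 shallower cells. Without applying that gate again they were 4.45% [3.31, 5.84] and 3.70% [2.94, 4.59]. The other gates below were not applied again after thinning. In the B cell gate the same 4 genes marked 3.78% and 1.89% of cells, or 2.71% and 0.842% after thinning. The intervals of T and B cells after thinning overlap with gluten (B cells [1.75, 4.01]) and not with HC alone ([0.386, 1.59]). This holds with the T cell gate applied again or not. In the macrophage gate it was 10.8% and 7.77%, and 4.19% [1.70, 8.45] and 2.81% [0.918, 6.43] after thinning, which overlaps the T cell share. Hormone-rich barcodes, where few cells divide, gave 0.174% and 0.277% after thinning at medians of 13751 and 28210 UMIs before it. The NK gate held 0 cycling cells of 11 and of 8, which allows shares of up to 28.5% and 36.9%.

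**Figure D1:**
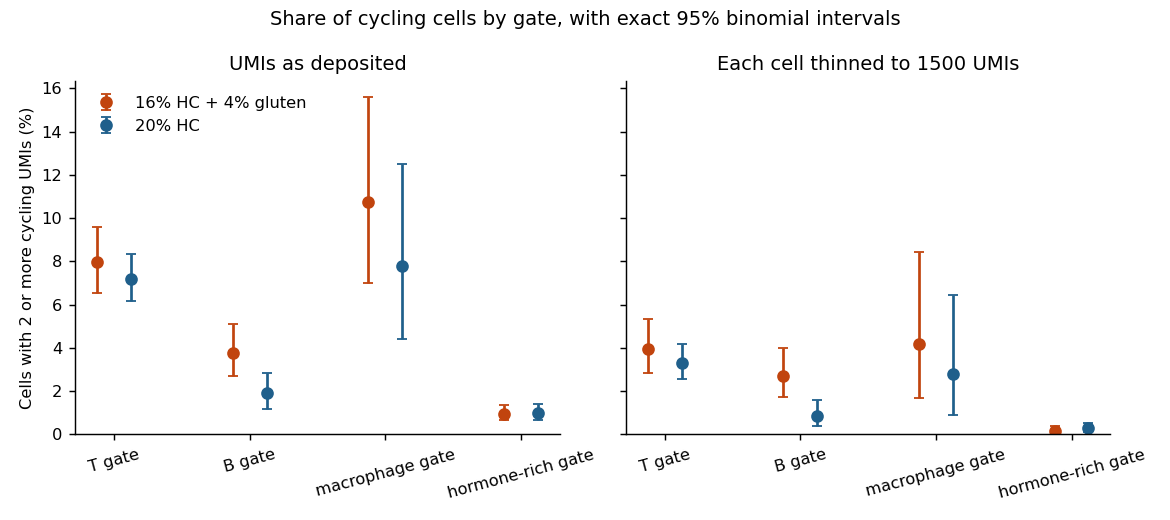
Share of cells with at least 2 UMIs of Mki67, Top2a, Birc5 and Ube2c (y axis, percent) in 4 gates, with UMIs as deposited (left) and after thinning each cell to 1500 UMIs (right). Points are the shares in each library and bars are exact 95% binomial intervals: T cells stand at 7.96% and 7.21%, and at 3.95% and 3.31% after thinning. Only the T cell gate was applied again after thinning.

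The 4 cycling genes peak late in the cell cycle, and S phase transcripts were also counted in T cells outside the rule. Of the T cells with 0 or 1 cycling UMI, 104 of 1157 (8.99% [7.40, 10.8]) and 197 of 2099 (9.39% [8.17, 10.7]) held at least 5 UMIs of the S phase lists. Among the cycling T cells 72.0% and 79.1% did. The intervals of the 2 libraries overlap in both comparisons.

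Within the cycling T cells, transcripts of S phase and of mitosis stood in different proportions from cell to cell. Per 10000 UMIs the S phase genes ranged from 0 to 84.2 with a median of 20.5 with gluten, and from 0 to 108 with a median of 24.0 with HC alone. The mitosis genes, without the tubulins and Stmn1, which resting cells also use, ranged from 0 to 199 with a median of 26.8, and from 0 to 195 with a median of 28.5. By this measure 62.0% [51.7, 71.5] and 61.3% [53.4, 68.9] of the cells leaned to S phase, each sum being divided by its mean over all cycling T cells, and with tubulins and Stmn1 kept 55.0% and 57.7%. Of them, 24.0% and 16.0% lay within 0.5 log2 of the border, so the lean is a range and not a type. CD8-gated cells leaned to S phase in 21 of 33 and 48 of 75 cases, and CD4-gated cells in 18 of 29 and 26 of 45. The intervals of these shares overlap.

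**Figure D2:**
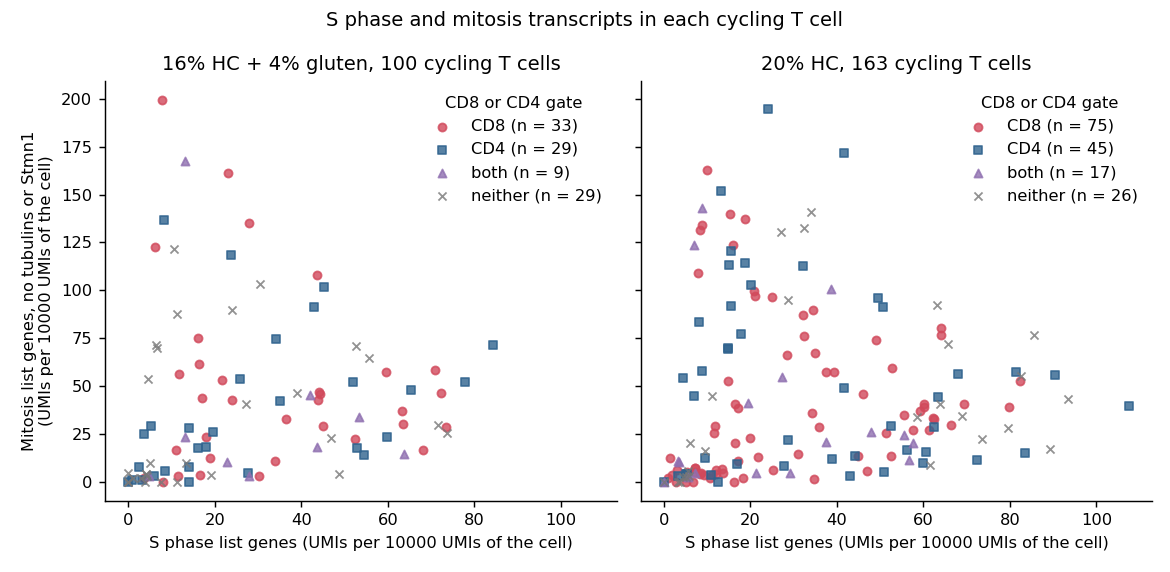
UMIs of S phase genes (x axis) and of mitosis genes without tubulins and Stmn1 (y axis), both per 10000 UMIs of the cell, in each of 100 cycling T cells with gluten (left) and 163 with HC alone (right). Each symbol is 1 cell, marked by its CD8 or CD4 gate, and the cells highest in mitosis genes, at 199 and 195, hold 7.79 and 24.0 of the S phase genes.

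CD8-gated cells were the most frequent kind of cycling T cell with HC alone. A cell was CD8-gated if it held a Cd8a or Cd8b1 UMI and no Cd4 UMI, which applied to 33 of 100 (33.0% [23.9, 43.1]) and 75 of 163 (46.0% [38.2, 54.0]). CD4-gated cells made up 29.0% and 27.6%, cells with both 9% and 10.4%, and cells with neither 29.0% and 16.0%. Among the other T cells both kinds of UMI occurred in 1.22% and 1.69%, at a lower depth. The 6% highest scores of Scrublet, which rates likely doublets, took in 6.0% [2.23, 12.6] and 6.75% [3.42, 11.8] of the cycling T cells. Of the other T cells they took in 2.62% [1.75, 3.77] and 1.18% [0.747, 1.76]. The part of doublets in the cells with both was not tested. In the B cell gate a CD8 UMI was found in 0.284% and 0.345% of cells, at medians of 2125.5 and 2682 UMIs. That gate took only barcodes without a UMI of the CD3 genes, and they were shallower than the cycling T cells. These shares therefore cannot set the background from free RNA in the cycling T cells.

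At an equal depth of 1500 UMIs, a Cd8a or Cd8b1 UMI would be expected in 28.7% and 40.6% of the cycling T cells, computed from the hypergeometric probability of each cell, and in 23.1% and 20.8% of the other T cells. A single random draw at that depth gave CD8-gated shares of 21.6% and 42.0%, with differences from the other T cells of 0.104 points [−7.45, 9.64] and 21.1 points [13.5, 29.0]. The gap between diets was smaller among cells farther inside the threshold. With at least 4 cycling UMIs the expected shares were 35.3% (64 cells) and 38.1% (114 cells), and the gated shares 40.0% and 43.9%, a difference of −3.86 points [−18.2, 11.1].

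Cd4 pointed the other way at equal depth with HC alone, with an expected share of 8.88% in cycling against 17.5% in other T cells. With gluten these shares were 9.95% and 12.8%. In the single random draw at 1500 UMIs, the share with a Cd4 UMI differed by −10.6 points [−13.9, −5.48] with HC alone. With gluten it differed by −3.67 points [−8.58, 4.02], which lies within counting error. As deposited, at unequal depth, a Cd4 UMI was more frequent in cycling than in other T cells. Those differences were 18.2 points [8.98, 28.3] and 9.51 points [2.13, 17.4]. Foxp3, the master factor of regulatory T cells, was seen in 14% [7.87, 22.4] and 16.6% [11.2, 23.2] of the cycling T cells and in 5.34% and 5.93% of the others. At 1500 UMIs the expected shares were 4.78% and 3.25% in cycling and 3.11% and 3.35% in other T cells, closer together than before. Trdc, the constant region of the delta chain, would be expected in 4.16% and 1.32% of cycling and 7.70% and 4.24% of other T cells. With HC alone, none of the 114 cells with at least 4 cycling UMIs and enough depth held a Trdc UMI.

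**Figure D3:**
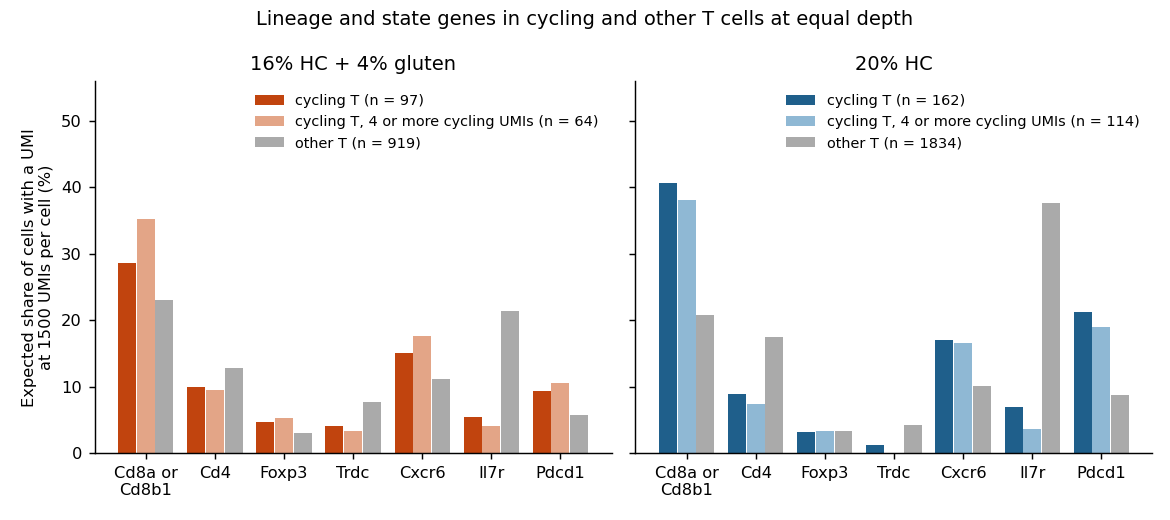
Expected share of cells with a UMI (y axis, percent) at 1500 UMIs per cell for 7 genes or gene pairs, in cycling T cells, in those with at least 4 cycling UMIs and in other T cells, with gluten (left) and HC alone (right). CD8 transcripts reach 40.6% of the cycling T cells with HC alone against 20.8% of the others, and Il7r is lower in the cycling T cells of both libraries.

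Thinning the T cells first and gating them at that depth, CD8-gated cells cycled at close shares on both diets, 16 of 241 (6.64% [3.84, 10.6]) and 32 of 485 (6.60% [4.56, 9.19]). CD4-gated cells did so in 4 of 140 (2.86% [0.784, 7.15]) and 4 of 345 (1.16% [0.317, 2.94]), and cells with neither in 4.05% and 3.31%. Before thinning the CD4-gated shares were 11.6% and 7.19%, a difference of 4.37 points [0.273, 9.25], and the CD8-gated shares 10.1% and 13.2%. With HC alone the thinned CD8 and CD4 intervals do not overlap. With gluten they do.

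Set against the other T cells of its own library, the cycling T cells carried far more RNA of DNA copying and mitosis. The choice of cells fixes that direction, so these values describe the cells and carry no test. Of the genes measured with at least 50 UMIs, 6.84% and 8.88% reached a 2-fold higher level in cycling T cells, and 10.2% and 8.32% a 2-fold lower one. Intervals lay above 0 for 25.9% and 31.1% of them and below 0 for 25.8% and 28.2%. Pclaf, the clamp-associated factor of DNA synthesis at chr9:65890237-65903266 (GRCm38), stood at 516 and 638 CPM (UMIs of the gene per 1000000 UMIs) in cycling against 4.64 and 2.30 in other T cells. It was seen in 68.0% and 71.2% of the cycling cells. Ccna2 (cyclin A2), at chr3:36564865-36572150, stood at 184 and 201 CPM against 0.663 and 0.459, log2 ratios of 8.12 [6.24, 11.17] and 8.77 [7.21, 11.05]. It was found in 52.0% and 54.0% of the cycling T cells.

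The mitotic genes formed the top of the list. Ccnb2 reached 143 and 203 CPM against 0.663 and 0.612, and Cdc20 178 and 228 CPM against 2.65 and 4.90. Hmmr reached 76.8 and 104 CPM and was at 0 in all 1067 and 1956 other T cells, a floor of 3 counts that makes it at least 6.27 and 7.83 higher on the log2 scale. The lower bounds of its counting intervals, which do not use the floor, were 5.94 and 7.52. Cenpf and Cenpe, proteins of the kinetochore by which chromosomes hold to the spindle, had ratios of 6.77 and 6.10, and of 7.43 and 6.31. The spindle factors Tpx2 and Nusap1 gave 6.49 and 7.16, and 7.36 and 7.81. Knl1 (kinetochore scaffold) gave 7.50 and 8.65, and Cdca8 (borealin, of the chromosomal passenger complex with Birc5) 5.62 and 5.89. The linker histone gene Hist1h1b gave 8.49 and 9.22.

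By list, leaving out the genes of the rule, all 25 spindle and cytokinesis genes and all 20 kinetochore genes were at least 2-fold higher in both libraries, with list medians of 4.48 and 5.07, and of 4.47 and 4.73. The mitotic kinases and cyclins had medians of 4.81 and 6.10, with 19 and 20 of 20 genes at least 2-fold higher, and the anaphase-promoting complex and ubiquitin list 3.03 and 4.24, with 10 of 10. The median over all genes with at least 10 UMIs was −0.04 and 0.01. For S phase, all 21 replication genes were at least 2-fold higher (medians 2.45 and 2.81), and 19 and 20 of the 20 licensing genes (2.55 and 3.47), among them Cdc6 at 4.80 and 6.58 and Mcm5 at 2.75 and 3.49. Nucleotide supply stood at 1.28 and 1.56, and histones at 1.70 and 2.43. Most mRNAs of replication-dependent histones lack a poly(A) tail, which 3' libraries prime on, so few of them are captured.

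Metabolic genes stood less far above the other T cells. Glycolysis genes had medians of 0.81 and 1.15, with 8 and 10 of 12 intervals above 0, led by Tpi1 (1.41 and 2.17), Pgam1 (1.50 and 1.52) and Pgk1 (1.32 and 1.40). Oxidative phosphorylation had 17 of 18 intervals above 0 in both libraries and medians of 0.55 and 0.73. Ribosomal protein genes were slightly lower, with 13 and 14 of 18 intervals below 0.

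**Figure D4:**
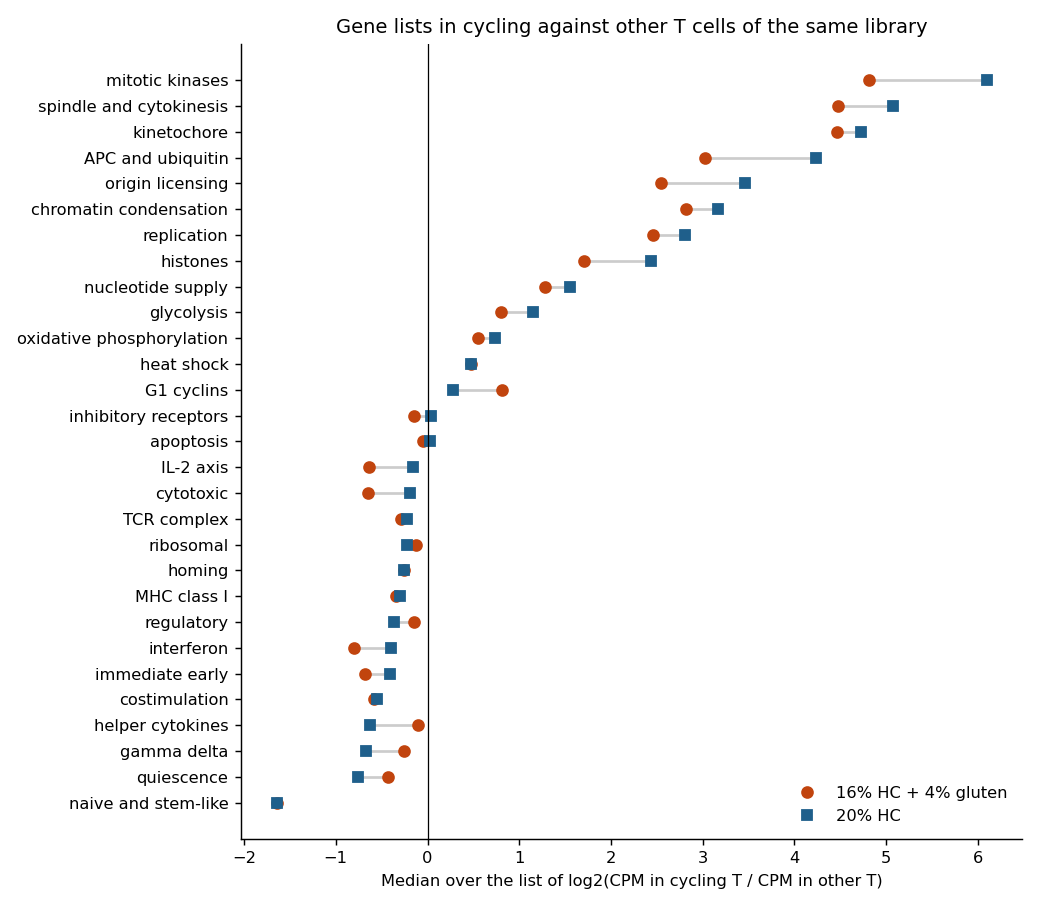
Median over each gene list of log2(CPM in cycling T cells / CPM in other T cells) on the x axis, for 29 lists and both libraries, with the genes of the rule left out and genes at 0 set at the floor of 3 counts. Lists of mitosis and S phase lie to the right in both libraries, and naive and stem-like genes lie at −1.64 in both.

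Naive and stem-like genes stood below the other T cells in both libraries. Of the 12 naive and stem-like genes, 10 and 9 were at least 2-fold lower, and both list medians were −1.64. Il7r, the receptor for the survival factor IL-7, stood at 32.4 and 46.1 CPM in cycling against 168 and 392 in other T cells, log2 ratios of −2.37 [−2.91, −1.88] and −3.09 [−3.37, −2.82]. Lef1, a factor of naive T cells, gave −1.96 and −2.80, and Klf2, a factor of quiescence and recirculation, −1.89 and −1.72. Igfbp4 gave −2.86 and −2.04. The quiescence list was mixed, with 8 and 9 of 17 intervals below 0, 4 and 4 above, and medians of −0.43 and −0.76. Xcl1, a chemokine of CD8 T cells, stood above the other T cells, at 0.57 and 0.81.

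Effector genes differed in direction. Gzma (granzyme A) was lower in summed UMIs, at 16.6 and 8.74 CPM against 83.2 and 138. Few cells carried it, 4.0% and 3.07% of the cycling and 2.53% and 1.12% of the other T cells, at unequal depth. Ccl5 stood at −1.11 and −0.88. Gzmk was higher at 123 and 146 CPM against 73.0 and 55.0, and Eomes, a factor of effector and memory CD8 T cells, gave 0.59 and 0.84. Gzmb gave 0.71 and 0.38. Foxp3 stood at −0.34 and −0.50. Immediate early genes, which answer to receptor signals, had 15 and 13 of 20 intervals below 0 and medians of −0.68 and −0.41. The pancreatic transcripts Clps, Cela3b, Ins1 and Ins2 were also among the genes farthest below the other T cells, at −3.84 and −4.28, −2.62 and −4.05, −1.64 and −1.68, and −1.62 and −1.48. These are made by acinar and beta cells, and Ins1 and Ins2 were found in 100% of the cycling T cells. The rule caps the share of hormone UMIs, and hormone genes were not left out of the rankings. The values of Ins1 and Ins2 are therefore descriptions and not findings.

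Between the diets, 4964 genes of the cycling T cells passed a minimum of 50 UMIs, set for the library in which a gene stood higher. With gluten 95 of them (1.91%) lay 2-fold or more above and 180 (3.63%) 2-fold or more below the level with HC alone. The median ratio was −0.16. Among the other T cells 2.57% of 7709 genes were higher and 2.61% lower. The 24 genes with the farthest intervals were mostly carried by single barcodes. In 21 of the 24 the highest cell held at least 25% of the gene's UMIs in the library where it stood higher, with a median of 58.6%. Sst (somatostatin) at 1825 and 80.6 CPM took 56.6% of its gluten UMIs from 1 cell, Lcn2 all of them, and Fabp4, at 34.2 CPM with HC alone and 0 with gluten, 86.0% from 1 cell. Sst is a hormone gene of the rule, so its level is a description and not a finding. Cxcl13, Lyz2, Apoe, Flt1, Emcn, Kdr, Plvap and Col4a1 were of the same sort and are genes of myeloid, endothelial and stromal cells. Vps37b, Ctrb1 and Dapl1 were the 3 not carried in this way. Vps37b, an endosomal sorting factor, stood at 199 and 38.9 CPM, with 5.12% of its gluten UMIs in the highest cell.

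Without barcodes that held RNA of other lineages and without the highest cell of each gene, 55 of 3689 genes (1.49%) lay 2-fold or more above and 98 (2.66%) 2-fold or more below HC alone. This was chosen after seeing the data, and leaving out 1 cell removes a larger part of the smaller library. By the same ranking, the genes farthest up fell into 2 sets. The first held 7 genes seen in 38.0% to 79.7% of the cells with gluten, grouped here after their values were seen. Tnfaip3, the A20 brake on NF-kB, stood at 275 and 76.6 CPM and was seen in 79.7% and 51.1% of the cells, log2 1.84 [1.52, 2.17]. Bhlhe40 stood at 359 and 95.5 CPM (1.91), Vps37b at 218 and 44.5 (2.29), Dusp5, a phosphatase of ERK, at 168 and 42.9 (1.97), Nfil3 at 78.8 and 16.8 (2.23), Phlda1 at 77.4 and 16.8 (2.20) and Pde4b at 91.5 and 20.1 (2.19).

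These 7 genes were also higher with gluten in the other T cells without RNA of other lineages. There Vps37b gave 1.89 [1.78, 2.00], Dusp5 2.10 [1.92, 2.27], Nfil3 2.07, Tnfaip3 1.77, Bhlhe40 1.64, Phlda1 1.37 and Pde4b 1.11. Within the CD8-gated cycling T cells Vps37b gave 2.17 [1.66, 2.69] and Tnfaip3 1.74 [1.30, 2.19], and within the CD4-gated ones 2.03 [1.26, 2.84] and 1.92 [1.37, 2.48]. Phlda1 gave 0.85 [−0.25, 1.89] in the CD8-gated cells, an interval that includes 0. With 1 library per diet, library and diet cannot be told apart.

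The other set was Cxcl10 and the class II genes Cd74, H2-Eb1, H2-Ab1 and H2-Aa, by which antigen-presenting cells show peptides to CD4 T cells. Cd74 stood at 1456 and 200 CPM (2.86 [2.69, 3.04]) and H2-Ab1 at 332 and 77.1 (2.11 [1.80, 2.42]). Over all cycling T cells the ratios were smaller, at 1.30 [1.24, 1.36] for Cd74, 1.24 [1.15, 1.34] for H2-Ab1, 1.35 for H2-Eb1 and 1.20 for H2-Aa. In all CD8-gated cells Cd74 gave 0.63 [0.53, 0.73] and H2-Ab1 0.52 [0.35, 0.68], and in all CD4-gated cells 2.26 [2.14, 2.38] and 2.33 [2.13, 2.55]. Most of their UMIs came from few of the cells without RNA of other lineages. Cd74 was found in 34 of 79 and 49 of 141 of these, and the 5 highest held 83.2% and 86.3% of its UMIs. H2-Ab1 was found in 16 and 20, and the 5 highest held 87.7% and 89.9%. In the other T cells without RNA of other lineages Cd74 gave 0.42 [0.32, 0.52], H2-Ab1 gave 0.00 [−0.16, 0.16], H2-Aa 0.02 and H2-Eb1 −0.03. Over all other T cells these 4 gave 0.29 [0.24, 0.34], 0.18 [0.10, 0.26], 0.06 [−0.02, 0.15] and 0.13 [0.05, 0.22]. Cxcl10, a chemokine induced by interferon gamma, was seen in 34 of 79 and 28 of 141 cells at 196 and 22.8 CPM (3.10 [2.59, 3.64]), and the 5 highest held 49.1% and 55.9%. Cxcl10 was higher with gluten in the other T cells without RNA of other lineages too, at 1.83 [1.58, 2.08]. Over all other T cells it gave 0.92 [0.77, 1.07], and over all cycling T cells 1.97 [1.67, 2.28].

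Lower with gluten stood Pdcd1, which encodes the inhibitory receptor PD-1, at 64.8 and 168 CPM (−1.37 [−1.85, −0.92]), seen in 38.0% and 64.5% of the cells. Over all cycling T cells it stood at 59.2 and 146 CPM (−1.30). In all CD8-gated cycling T cells it was −1.75 [−2.56, −1.04] and in CD4-gated cells −0.47 [−1.14, 0.17]. The other T cells without RNA of other lineages gave −0.73 [−1.02, −0.44]. At 1500 UMIs a Pdcd1 UMI would be expected in 9.44% and 21.2% of the cycling and 5.77% and 8.85% of the other T cells. Of the 14 genes on the inhibitory receptor list, 4 had intervals below and 2 above 0 over all cycling T cells, with a median of 0.14. Of all measured genes 17.2% lay below and 8.12% above. Without RNA of other lineages and the highest cell, 4 of 12 lay below and 2 above, with a median of −0.25 beside −0.09 over all genes. The share of intervals over all genes is not given in that setting, so these counts are a description only. Over all cells Ctla4 gave 0.80 [0.58, 1.03], Lag3 −0.39 [−0.73, −0.06], Cd160 −1.22 [−1.91, −0.58], Havcr2 0.33 [−0.39, 1.02] and Tox, a factor of exhausted T cells, 0.14 [−0.17, 0.45].

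The chemokine gene Ccl4 stood at 94.3 and 258 CPM (−1.45 [−1.84, −1.08]) without the highest cell. Yet it was higher with gluten in the other T cells without RNA of other lineages (1.16 [1.04, 1.28]). The 5 highest cells held 69.3% and 63.4% of its UMIs. In CD8-gated cells the interval included 0, at 236 and 250 CPM (−0.08 [−0.45, 0.27]), and in CD4-gated cells it was at 0 with gluten and at 247 CPM with HC alone. Dapl1 (1.41 and 99.9 CPM) was found in 2 of 79 and 13 of 141 cells, and Tcrg-C4, a gamma chain constant region (9.86 and 66.2 CPM), in 7 and 33. The 1.41 CPM of Dapl1 is 1 UMI, left after the highest gluten cell, with 11 of 12 UMIs, was taken out. Over all cycling T cells Dapl1 stood at 11.1 and 90.5 CPM (−3.03 [−4.00, −2.20]). Tnfaip8l2 stood at 26.7 and 77.6 CPM (−1.54), and in other T cells without RNA of other lineages at −1.46. Raph1, Nrgn, Jdp2, Rpp25l and Kcnq1ot1, a long noncoding RNA, lay between −1.56 and −2.53.

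**Figure D5:**
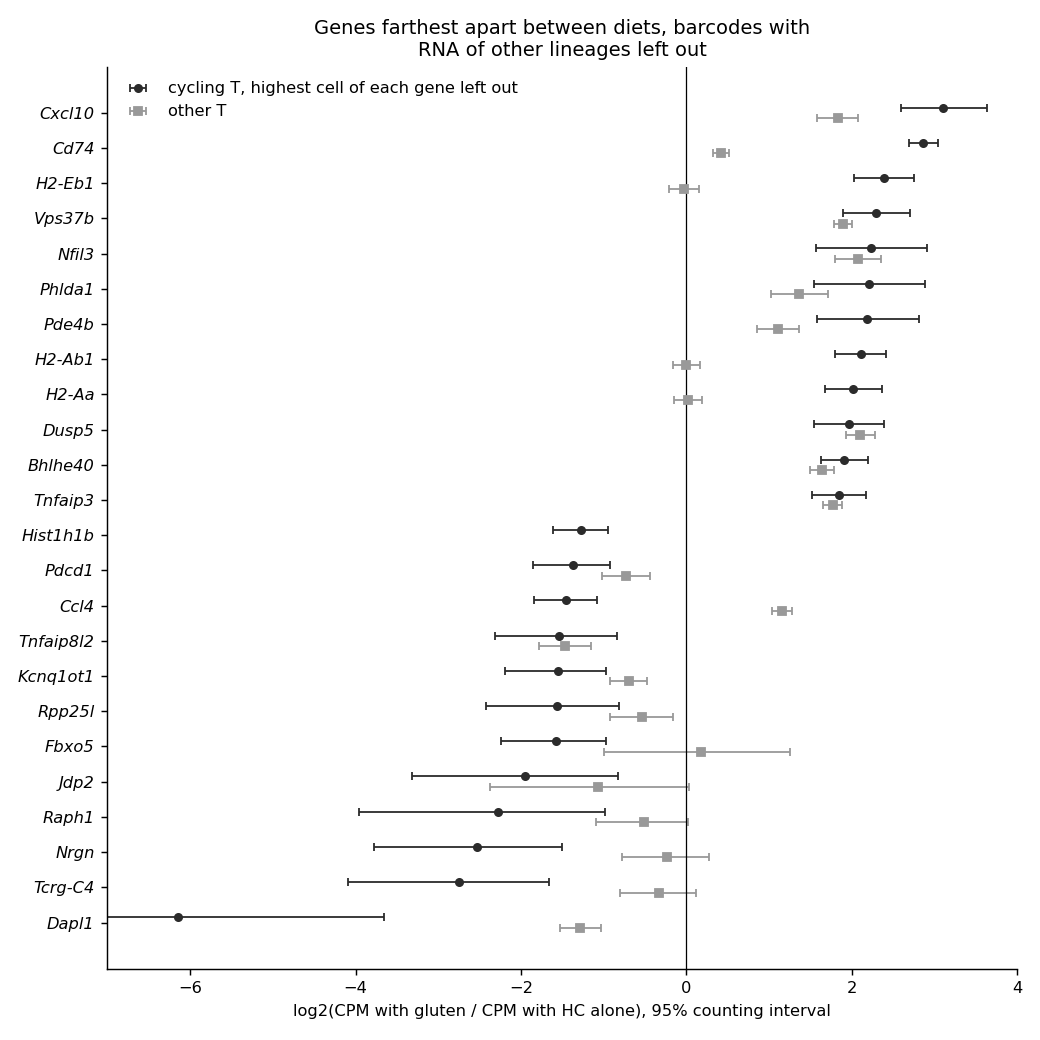
log2(CPM with gluten / CPM with HC alone) on the x axis for the 24 genes farthest apart in cycling T cells, with barcodes holding RNA of other lineages left out. Circles are cycling T cells without the highest cell of each gene, squares other T cells, bars 95% counting intervals (that of Dapl1, which rests on 1 gluten UMI, runs past the axis to −11.46, and Hist1h1b has no value in other T cells): Vps37b, Nfil3, Dusp5, Bhlhe40 and Tnfaip3 lie to the right in both, while Ccl4 lies on opposite sides of 0.

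Hist1h1b and Fbxo5, both cell cycle genes, were among those farthest down. Hist1h1b, the S phase linker histone H1.5 at chr13:21779883-21780625, stood at 125 and 303 CPM (−1.27 [−1.61, −0.95]), and was lower in CD8-gated (−1.04 [−1.50, −0.61]) and CD4-gated cells (−1.73 [−2.31, −1.18]) alike. Fbxo5, the Emi1 inhibitor of the anaphase-promoting complex, stood at 35.2 and 105 CPM (−1.57 [−2.24, −0.97]), and its interval in CD8-gated cells included 0 (−0.57 [−1.30, 0.11]). Over all cycling T cells the mitotic lists leaned the same way by small amounts. Of the 25 spindle and cytokinesis genes, 13 had intervals below 0 and 0 above, against 17.2% and 8.12% of all measured genes, with a median of −0.39. Of the 20 mitotic kinases and cyclins, 8 lay below and 1, Foxm1 at 0.93 [0.14, 1.71], above, with a median of −0.53. Cdk1 stood at 151 and 230 CPM (−0.61 [−0.87, −0.36]), Ccnb1 at 95.3 and 152 (−0.68) and Aurka at 24.0 and 46.5 (−0.95), while Ccna2 gave −0.12 [−0.37, 0.12]. Licensing stood at −0.20 with 4 of 20 intervals below 0, and replication at −0.15 with 4 of 21, each with 0 above. Both are close to the 17.2% and to the median of −0.12 over all genes with at least 10 UMIs in cycling T cells. No lean of licensing or replication is therefore read from them. The 17.2% is over measured genes, a higher minimum of UMIs than for list members. Nucleotide supply stood at −0.23 with 7 of 20 below, the kinetochore list at −0.23 with 6 of 20, and the histones at −0.54 with 4 of 13. Without RNA of other lineages the spindle median was −0.36, with 10 of 25 intervals below 0. In CD8-gated cells it was −0.17 with 2 of 25 below and 1 above, and in CD4-gated cells −0.51 with 7 below. The medians over all genes with at least 10 UMIs in these settings were −0.06, −0.05 and −0.12. No share of intervals over all genes is given for these settings, so their counts are descriptions only.

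Immediate early and heat shock genes were higher with gluten in cycling and other T cells alike. Of the 20 immediate early genes 13 had intervals above 0 and 2 below in cycling T cells (median 0.36), against 8.12% and 17.2% of all measured genes. In other T cells 15 lay above and 3 below (median 0.51), where 14.7% of all measured genes lay above and 22.5% below. Junb stood at 2153 and 930 CPM in cycling T cells (1.21 [1.13, 1.30]), Fosb at 211 and 71.1 (1.57 [1.28, 1.86]) and Fos at 562 and 316 (0.83). Jun (−0.35 [−0.58, −0.14]) and Egr2 (−2.27 [−4.21, −0.82]) lay on the other side, and 1 cell held 40.3% of the Jun UMIs with HC alone. Of the 10 heat shock genes 7 lay above 0, led by the inducible Hspa1a (57.3 and 17.1 CPM, 1.75 [1.16, 2.34]), while the constitutive Hsp90ab1 gave 0.00 [−0.05, 0.06]. Cdkn1a, the p21 inhibitor of the cell cycle, stood at 71.2 and 30.6 CPM in cycling (1.22 [0.74, 1.69]) and at 62.3 and 29.1 in other T cells (1.10).

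Of 21 interferon-stimulated genes, 2 had intervals above and 7 below 0 over all cycling T cells, against 8.12% and 17.2% of all measured genes. Irf1 was higher with gluten (1.09 [0.85, 1.33]), while Isg15 (−1.76 [−2.47, −1.11]), Ifit1 and Iigp1 (−2.26 [−3.10, −1.52]) were lower. A single cell held 71.4% of the Ifit1 UMIs and 38.7% of the Isg15 UMIs with HC alone, and without RNA of other lineages Isg15 gave −0.62 [−1.55, 0.22] and Iigp1 −0.38 [−1.64, 0.74]. In that setting 6 of 16 intervals lay above and 0 below 0, and the list median moved from −0.31 to 0.04. The medians over all genes with at least 10 UMIs were −0.12 and −0.06. In CD8-gated cells 2 of 18 lay above and 6 below, and in CD4-gated cells 6 of 15 above and 0 below. No share of intervals over all genes is given for these subsets, so their counts are descriptions only. Irf1 stayed at 1.33 [1.05, 1.61].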

How the data were processed

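The authors deposited a filtered table of UMI counts per gene and barcode for each of the 2 libraries. The counts were made with Cell Ranger 4.0.0 on mm10, per the submitters' processing notes, and how barcodes were called is not given in the sources used here. Symbols came from GENCODE gene names for 30934 of 31053 gene rows. Depth was 88268070 UMIs over 8200 barcodes with gluten and 116900677 over 7758 with HC alone.

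For each class of cells, the UMIs of a library were added up per gene and scaled to CPM. Intervals are exact binomial for shares, Newcombe intervals for differences of shares and exact conditional for ratios of counts, all at 95% and for counting error only. A gene at 0 was set to a floor of 3 counts per class and library. A gene counted as measured from 50 UMIs, and entered a list's median and interval counts from 10. Shares of intervals over all measured genes thus rest on a higher minimum than the list counts set beside them. The named genes were the 12 in each direction whose interval bound nearest 0 lay farthest from it among measured genes at least 2-fold apart. List members besides these were the most abundant and farthest apart, and some were named after their values were seen. Members and lists were chosen with earlier results of these data known. Counting steps were tested on simulated data. Doublets were kept, and Scrublet (scanpy 1.11.5) entered as an alternative. edgeR 4.0.16 gave TMM factors only. Promoters are from RefSeq (GRCm38.p6).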

Additional observations from a re-analysis of the deposited data

Results flagged for a closer look

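For 4 genes of the lists the log2 ratio of cycling over other T cells lay on opposite sides of 0 in the 2 libraries, and this difference between libraries was not tested. Ccl4 stood at −2.20 with gluten and 0.57 with HC alone. Cd160, an inhibitory receptor, stood at −1.01 and 0.43. Ccr2, a chemokine receptor, stood at 0.59 and −0.69. Dnaja1, a heat shock co-chaperone, stood at 0.18 and −0.13.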

How the results depend on the processing

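No paired analysis was possible because each diet has 1 library, and no replicate could be left out. The 33 recomputed differences in share between diets stayed within the interval of the reported difference. The shares themselves moved. Cycling cells made up 15.1% and 13.5% of the T cells from 1 cycling UMI, 5.17% and 5.04% from 4, and 3.95% and 3.31% after thinning. The CD8-gated difference between diets of −13.0 points [−24.4, −0.773] had an interval that included 0 in 4 settings: from 4 cycling UMIs (−3.86), from 1 (−8.29 [−16.6, 0.442]), without the 6% highest Scrublet scores (−12.7 [−24.5, 0.0141]) and without RNA of other lineages (−12.1 [−24.7, 1.56]). The 95 genes higher with gluten became 179 at a minimum of 20 UMIs, 49 at 100 UMIs and 1336 with none. They became 31 in CD8-gated cells, 56 in CD4-gated cells, 59 without barcodes of 10 acinar UMIs, 57 from 4 cycling UMIs, and 55 (37 of them shared) without RNA of other lineages and each gene's highest cell. The 180 lower genes became 579, 70 and 1242 at these minimums, 106 in CD8-gated and 65 in CD4-gated cells, 92 without RNA of other lineages, and 98 (52 shared) also without the highest cell. Log2 ratios changed sign for Lyz2 (−2.50 in CD8-gated cells, −1.34 without RNA of other lineages, −1.43 also without the highest cell), Lcn2 (−0.48 without the 6% highest Scrublet scores), Il1b (−0.61, CD8-gated), Rgs5 (−0.063, CD8-gated, and −2.65, Scrublet), Apoe (1.31 and 1.22 in the settings without RNA of other lineages), Lurap1l (1.72, likewise) and Nrgn (0.54, CD4-gated). The median of the macrophage markers became −2.50 in CD8-gated cells. The cause was not tested, beyond fewer cells or genes entering. The settings on RNA of other lineages and on each gene's highest cell were chosen after seeing the data. With 100 and 163 cells of 1 pool each, counting intervals leave out the spread between mice.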

Other observations

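V segments of the T cell receptor were seldom captured by these 3' libraries. A Trbv UMI was found in 15 of 100 and 24 of 163 cycling T cells, and in 41 of 1067 and 122 of 1956 other T cells. Trbv12-2 was present in 7 of those 15 cells with gluten (46.7% [21.3, 73.4]) and in 4 of 24 with HC alone (16.7% [4.74, 37.4]), against 14 of 41 and 18 of 122 of the other T cells with a Trbv UMI. Trav16n was present in 5 of the 11 and 12 of the 31 cycling T cells with a Trav UMI, and in 14 of 59 and 38 of 166 other T cells. These segments were chosen after their values were seen, and close copies of Trav genes can share reads.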
